A study of Homo sapiens with 6 samples.

Results

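Genes named LINC followed by a number are long intergenic non-coding RNAs that carry no name for a function. They were chosen by their mean level: a gene was kept if its symbol had this form and its mean over all 6 libraries was at least 0.5 TPM (transcript abundance corrected for transcript length and put on a common total per library). Of 2054 LINC genes among the 56632 genes of the tables, 139 were kept, 711 had a TPM above 0 in some library and 1343 were at 0 in every library. The choice used the level over both groups together and not the difference between them. The 3 genes just inside the minimum were LINC02981 at 0.507 TPM, LINC01399 at 0.508 TPM and LINC01910 at 0.512 TPM. The 3 just outside were LINC02043 at 0.498 TPM, LINC00115 at 0.487 TPM and LINC02614 at 0.480 TPM.

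Long non-coding RNAs of this class are transcribed by RNA polymerase II, and most are capped, spliced and polyadenylated like mRNAs but hold no long conserved reading frame. Many are less abundant than mRNAs, are spliced less completely and stay at the chromatin, where the nuclear exosome can degrade them. For some the act of transcription bears on a neighbouring gene, for some the RNA itself acts, and for most no role is known. Matrin3, encoded by MATR3, is an abundant RNA-binding protein of the nuclear matrix that binds introns and takes part in splicing.

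HCT116, an established human colorectal cancer cell line, was transfected with a SMARTpool of siRNAs against Matrin3 (siMatrin3) or with the AllStars negative control siRNA (siCTRL). According to the labels, there was an interval of 72 hours and then one of 48 hours, and the methods describe 2 transfections and reseeding of the cells before RNA was purified. The methods put that step 3 days after the second transfection, which differs from the labels. Each group had 3 libraries, described as biological triplicates, of poly(A) RNA sequenced with a strand-specific kit. Poly(A) capture selects against RNAs without a poly(A) tail, so the level of such RNAs was not fully measured. The knockdown was a pool of siRNAs in a single line with no rescue, and an effect of the pool on other targets cannot be told apart from loss of Matrin3.

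The libraries held 40808173 to 54185650 expected counts, which are estimated read counts that divide reads shared between transcripts. MATR3 went from 181 ± 5.01 to 106 ± 9.37 TPM (SD, n = 3 per group), a log2 fold change of -0.93 (edgeR quasi-likelihood test, Benjamini-Hochberg adjusted p = 7.67e-05), with no overlap between the groups. All 7 epithelial markers were present, from CDH1 at 74.9 TPM to KRT8 at 1235 TPM in siCTRL, and of these KRT18 passed the test, lower by 0.15 on the log2 scale (edgeR adjusted p = 0.0330). KRT18 lost that call without siCTRL replicate 2 or 3 or any siMatrin3 library (edgeR adjusted p from 0.0510 to 0.139). PTPRC, a marker of blood cells, was at 0 TPM in every library, and CD3E, COL3A1 and VWF were at or under 0.113 TPM in both groups. COL1A1, a fibroblast collagen, was at 15 TPM in siCTRL and 16.6 TPM in siMatrin3. In bulk RNA, fewer cells with a transcript and less of it per cell cannot be told apart.

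The LINC genes took a small share of each library. They held 0.0476, 0.0503 and 0.0476% of the expected counts in siCTRL replicates 1 to 3 and 0.0456, 0.0460 and 0.0451% in siMatrin3, so each siCTRL share was above each siMatrin3 share. Their summed TPM was 454, 483 and 459 in siCTRL and 423, 467 and 437 in siMatrin3, and on this scale the groups overlapped. Neither sum was tested. Levels were skewed: 7 genes had a mean of at least 10 TPM, 15 lay between 5 and 10, 77 between 1 and 5, and 40 under 1. The median gene was at 1.47 TPM and 49.3 expected counts per library, against 9.09 TPM and 767 counts over the 16786 genes tested. The number of LINC genes at 1 TPM or more was 94, 103 and 101 in siCTRL and 85, 91 and 94 in siMatrin3. Over all genes it was 14098, 14368 and 14182 in siCTRL and 14033, 14076 and 14038 in siMatrin3, so it was lower there too.

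The name intergenic was checked against the GENCODE annotation. Of the 139 genes, 131 had the lncRNA biotype and 8 a pseudogene biotype. A protein-coding locus overlapped 15 of them, 8 times on the same strand and 8 times on the opposite strand, with LINC00852 counted on both. Same-strand exons were shared with another gene in 22, and for these the division of reads between the genes is an estimate. A coding gene was transcribed head to head from within 1000 bases in 7. They were spread over the autosomes and chromosome X, with 14 on chromosome 12, 13 on chromosome 1 and 11 on chromosome 17. Their median locus was 12620 bases with 3 exons and a mature transcript of 1509 bases, against 32992 bases, 9 exons and 3300 bases for the protein-coding genes tested. The 1229 other lncRNA genes at 0.5 TPM or more had a median locus of 5402 bases with 2 exons and 985 bases of mature transcript.

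The most abundant LINC gene was LINC02210 (ENSG00000204650, chromosome 17), with 43.1, 45.4 and 45.2 TPM in siCTRL and 45.4, 46.4 and 47.8 TPM in siMatrin3. It shares exons with the readthrough gene LINC02210-CRHR1, so its level is uncertain. LINC01234 (ENSG00000249550, chromosome 12), a transcript described as raised in several carcinomas, came next at a mean of 30.3 TPM. LINC00963 (ENSG00000204054, chromosome 9), first described in prostate cancer cells, followed at 22.8 TPM, with 21.1, 26.5 and 25 in siCTRL and 20.6, 23.5 and 20.04 in siMatrin3. LINC00662 was at a mean of 17.5 TPM and LINC00511 at 15.8 TPM. The remaining ones of the 10 highest were LINC02985 (11.4 TPM), LINC01128 (10.5 TPM), LINC01001 (9.73 TPM), LINC00467 (9.58 TPM) and LINC00888 (8.61 TPM). LINC02210, LINC01234 and LINC00963 did not overlap one another in any library, the closest values being 27.7 TPM for LINC01234 and 26.5 TPM for LINC00963. From LINC00662 down, the ranges of neighbours in this order overlapped.

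**Figure D1:**
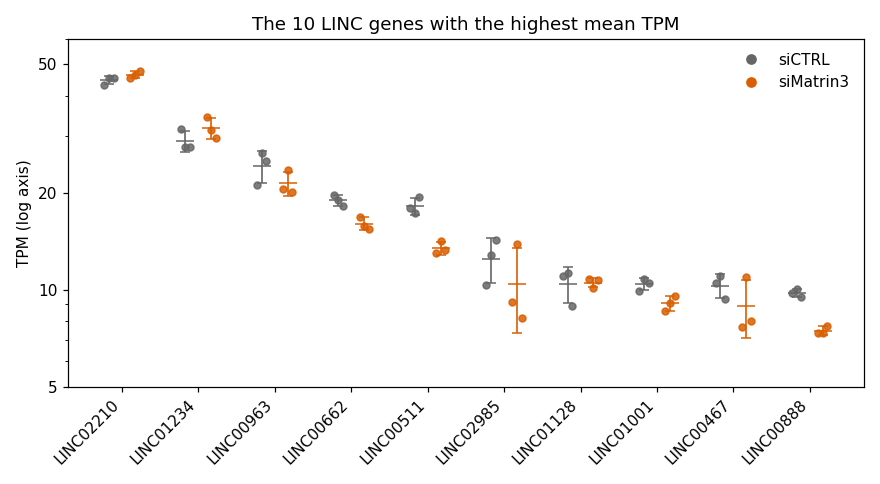
TPM on a log axis of the 10 LINC genes with the highest mean TPM, in siCTRL (grey) and siMatrin3 (orange), with each library as a point and the mean ± SD of 3 libraries as bars. LINC00511, LINC00888, LINC00662 and LINC01001 show siMatrin3 libraries below all siCTRL libraries, and the groups of LINC02985 and LINC00467 overlap.

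LINC00662 had 19.6, 18.95 and 18.2 TPM in siCTRL and 16.9, 15.8 and 15.4 TPM in siMatrin3. Its groups did not overlap, and its log2 fold change of -0.17 ± 0.064 (SE) did not pass the test (edgeR, adjusted p = 0.111). LINC01001 likewise had separate groups, with 9.91, 10.8 and 10.5 TPM against 8.56, 9.09 and 9.54 TPM, and an adjusted p of 0.162 by edgeR. LINC02985 varied most among the 10 highest genes in proportion to its mean, with 10.3, 12.8 and 14.3 TPM in siCTRL and 9.13, 13.9 and 8.14 TPM in siMatrin3. LINC01128 had 11.03, 11.3 and 8.90 TPM against 10.8, 10.1 and 10.7 TPM. LINC00467, which has been studied in colorectal cancer, had 10.5, 11.04 and 9.32 TPM against 7.67, 10.95 and 7.98 TPM, so its second siMatrin3 library lay within the siCTRL range.

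The comparison of siMatrin3 with siCTRL asked which of these RNAs differed in level after the knockdown. The count filter left 132 of the 139 for the test. Of these, 7 were lower and 1 was higher in siMatrin3 at an adjusted p under 0.05 (edgeR quasi-likelihood test, Benjamini-Hochberg over all genes tested), 8 in all or 6.06%. Of all 16786 genes tested, 11.0% passed, 5.97% as lower and 5.05% as higher, so the share of LINC genes was the smaller one, a difference that was not tested. They also had fewer counts: the median standard error of their log2 fold changes was 0.21, against 0.07 over all genes. Among LINC genes with a mean of at least 200 counts 5 of 24 passed, against 13.2% of all such genes. Between 50 and 200 counts 2 of 45 passed, against 9.48%, and under 50 counts 1 of 63, against 3.85%. Of all genes between 50 and 200 counts, 175 passed as lower and 36 as higher. Under 50 counts these were 90 and 27, and at 200 counts and over 737 and 784.

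The groups did not overlap in TPM for 29 of the 132 tested genes, or 22.0%, of which 24 were lower and 5 higher in siMatrin3. The corresponding shares of all genes tested were 25.1%, with 15.2% lower and 9.99% higher. Among all genes under 50 counts 342 were separate and lower and 143 separate and higher. Between 50 and 200 counts these were 388 and 111, and at 200 counts and over 1814 and 1423. Among the other lncRNA genes they were 142 and 54. A lean to lower was thus also present in all genes with few counts. The median log2 fold change of the tested LINC genes was -0.10, and 85 were negative and 47 positive, against a median of -0.00 over all genes and -0.04 for the other lncRNA genes. Without siCTRL replicate 2 the LINC median was -0.05. By counts, the 63 tested LINC genes under 50 counts had a median of -0.10 and all genes in that range -0.09. The LINC genes with 50 to 200 counts had a median of -0.12 and all genes in that range -0.07, and for 200 counts and over the medians were -0.00 and 0.01. Taken by library, the median difference of a LINC gene from its own siCTRL mean, in log2 CPM, was -0.14, -0.02 and -0.09 in the siMatrin3 libraries and -0.03, 0.05 and -0.02 in the siCTRL libraries. The second siMatrin3 library thus lay within the siCTRL range, and the shift was not tested as a whole.

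**Figure D2:**
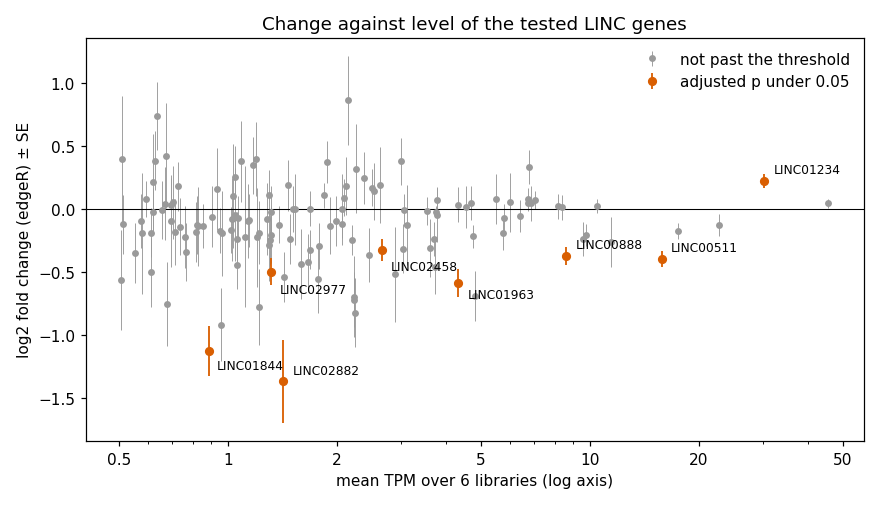
Log2 fold change of siMatrin3 against siCTRL (edgeR, bars give ± SE) for the 132 tested LINC genes against their mean TPM on a log axis. The 8 genes at an adjusted p under 0.05 are orange, 7 of them below 0, and the bars are longer towards low TPM.

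For 5 of the 8 genes past the test, and for 90 of the 139 genes, the RefSeq promoter table for GRCh38.p14 held a window. It covered 250 bases before and 50 bases after the start in RefSeq. Loci and distances to coding genes came from GENCODE, whose start for a gene can be a different one. Windows of 4 are shown, read 5′ to 3′ on the gene's strand, for the most abundant gene that fell, the gene whose fall was largest among those passing in every alternative fit, a gene whose neighbour fell too, and the gene that rose. LINC00511 is at chr17:72640423-72640722 (minus strand), LINC01844 at chr5:142745350-142745649 (plus strand), LINC02458 at chr12:89019643-89019942 (minus strand) and LINC01234 at chr12:113773634-113773933 (minus strand). Capitals mark matches on either strand to 3 core promoter motifs: TATAAA for the TATA box, then CCAAT for the CCAAT box and GGGCGG for the GC box.
LINC00511: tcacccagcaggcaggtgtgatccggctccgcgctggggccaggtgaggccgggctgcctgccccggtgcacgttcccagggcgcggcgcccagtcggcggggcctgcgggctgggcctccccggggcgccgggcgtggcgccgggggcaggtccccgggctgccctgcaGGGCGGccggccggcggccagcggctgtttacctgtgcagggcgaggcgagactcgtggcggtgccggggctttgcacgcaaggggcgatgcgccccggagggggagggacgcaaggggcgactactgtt
LINC01844: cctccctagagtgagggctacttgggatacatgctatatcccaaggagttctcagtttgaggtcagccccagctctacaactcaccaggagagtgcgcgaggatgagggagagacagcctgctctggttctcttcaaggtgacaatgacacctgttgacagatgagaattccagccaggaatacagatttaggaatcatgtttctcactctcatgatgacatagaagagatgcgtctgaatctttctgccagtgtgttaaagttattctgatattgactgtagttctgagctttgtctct
LINC02458: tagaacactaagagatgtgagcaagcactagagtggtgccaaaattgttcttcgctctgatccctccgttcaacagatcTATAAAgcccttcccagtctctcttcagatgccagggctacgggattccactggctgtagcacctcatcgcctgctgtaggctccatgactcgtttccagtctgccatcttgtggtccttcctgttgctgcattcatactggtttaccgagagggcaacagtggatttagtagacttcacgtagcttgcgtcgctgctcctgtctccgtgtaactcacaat
LINC01234: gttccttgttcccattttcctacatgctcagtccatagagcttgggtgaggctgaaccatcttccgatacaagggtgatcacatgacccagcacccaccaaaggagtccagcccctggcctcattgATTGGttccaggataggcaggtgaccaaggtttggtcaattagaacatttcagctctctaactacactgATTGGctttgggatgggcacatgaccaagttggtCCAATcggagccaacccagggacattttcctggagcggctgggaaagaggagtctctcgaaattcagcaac

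TATAAA was found in 11.5% of all 35116 windows in the table and in 10 of the 90 LINC windows. CCAAT was found in 34.6% of all and in 40 of the 90, and GGGCGG in 45% of all and in 48 of the 90. The window of LINC00511 was rich in G and C (78%), with 35 CG dinucleotides against a median of 14 over all windows, and held 1 match to GGGCGG. LINC01844 had 3 CG dinucleotides and no match. LINC02458 had 10 and held 1 match to TATAAA. LINC01234 had 4 and held 3 matches to CCAAT. The 3 windows shown of genes that were lower in siMatrin3 thus had none of these motifs in common. The window of LINC02882, also lower and not shown, had 10 CG dinucleotides and 1 match to CCAAT. A match describes the letters and is not a measured binding site.

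LINC00511 (ENSG00000227036, chromosome 17) is a transcript described as raised in several carcinomas, and its locus spans 350382 bases with 6 exons. It had 17.9, 17.2 and 19.3 TPM in siCTRL and 13.0, 14.2 and 13.2 TPM in siMatrin3, so every siMatrin3 library lay below every siCTRL library. It fell from 18.2 ± 1.06 to 13.5 ± 0.624 TPM (SD, n = 3), which is -0.40 ± 0.066 (SE) on the log2 scale (edgeR adjusted p = 0.00529). Its fitted level fell by 24.1%. LINC00888 (ENSG00000240024, chromosome 3), annotated as a transcribed pseudogene, had 9.77, 10.03 and 9.50 TPM in siCTRL and 7.31, 7.31 and 7.72 TPM in siMatrin3. Its groups were apart by more than their spread, with a log2 fold change of -0.37 ± 0.073 (edgeR adjusted p = 0.0109). The annotation holds another gene of the same symbol that shares exons with it, and the snoRNA genes SNORA63D and SNORA63E lie inside its locus, so its counts are uncertain.

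LINC01844 (ENSG00000236714, chromosome 5) has 6 exons over 44807 bases. It had 1.51, 1.03 and 1.13 TPM in siCTRL and 0.580, 0.560 and 0.520 TPM in siMatrin3, from 134, 71 and 92 counts against 53, 41 and 40. The siMatrin3 libraries lay close together and all below siCTRL, with a log2 fold change of -1.12 ± 0.20 (edgeR adjusted p = 0.00667). Its fitted level fell by 54.1%. LINC02882 (ENSG00000251138, chromosome 12) is the longest locus of the set, with 12 exons over 582286 bases. It had 1.88, 2.91 and 1.36 TPM in siCTRL and 0.590, 0.860 and 0.920 TPM in siMatrin3, with a log2 fold change of -1.37 ± 0.33 (edgeR adjusted p = 0.0245). The groups did not overlap, but it had 14.7 to 54 counts per library, and its siCTRL libraries differed more, in proportion to their mean, than those of the other genes past the test. The call was lost when siCTRL replicate 2 was left out (edgeR adjusted p = 0.0711) or any siMatrin3 library (0.0558 to 0.0814).

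LINC01963 (ENSG00000260804, chromosome 2) is a single exon of 3148 bases. It had 4.54, 5.86 and 5.29 TPM in siCTRL and 3.14, 3.25 and 3.92 TPM in siMatrin3. All siMatrin3 libraries were lower, with a log2 fold change of -0.59 ± 0.11 (edgeR adjusted p = 0.00930). LINC02977 (ENSG00000259953, chromosome 9) has 3 exons over 10574 bases and had 1.48, 1.67 and 1.59 TPM in siCTRL and 0.99, 1.0 and 1.15 TPM in siMatrin3. Its groups were separate, with a log2 fold change of -0.50 ± 0.11 (edgeR adjusted p = 0.0160). Without siMatrin3 replicate 3 the adjusted p was 0.0582, and by limma it was 0.0606 or 0.0799, depending on the pseudocount.

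LINC02458 (ENSG00000246363, chromosome 12) has 7 exons over 298886 bases. It had 2.77, 3.03 and 3.13 TPM in siCTRL and 2.40, 2.25 and 2.36 TPM in siMatrin3, with a log2 fold change of -0.33 ± 0.087 (edgeR adjusted p = 0.0385). The groups did not overlap. The call was lost without siCTRL replicate 2 or 3 or any siMatrin3 library, with edgeR adjusted p from 0.0651 to 0.143. It was also lost with DESeq2 (adjusted p = 0.0930). LINC01234, the only member that rose, had 31.5, 27.7 and 27.7 TPM in siCTRL and 34.3, 31.4 and 29.5 TPM in siMatrin3, and here the groups overlapped. Its counts were 1748, 1265 and 1449 against 2064, 1554 and 1558, with a log2 fold change of 0.22 ± 0.056 (edgeR adjusted p = 0.0302). It lost the call without siCTRL replicate 2 or 3 or siMatrin3 replicate 1 or 2, with edgeR adjusted p from 0.0730 to 0.122. On the TPM scale its limma adjusted p was 0.379. With transcript length as an offset its log2 fold change was 0.147 (edgeR adjusted p = 0.311).

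**Figure D3:**
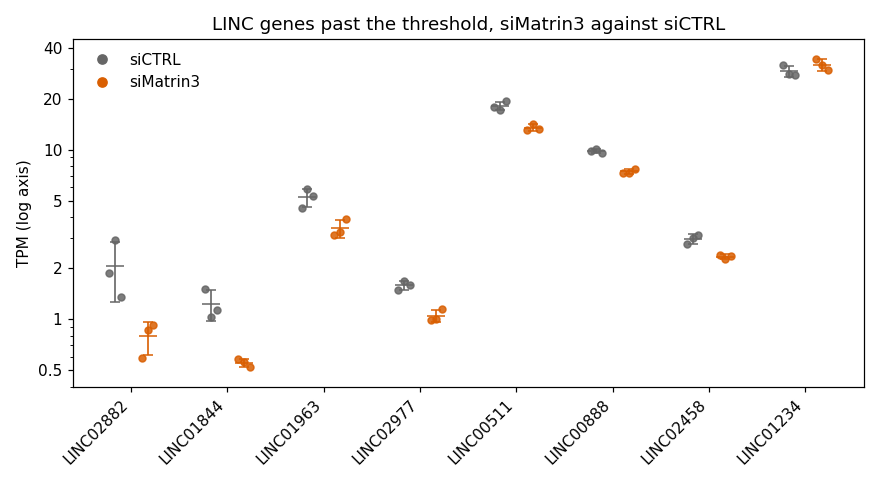
TPM on a log axis of the 8 LINC genes at an adjusted p under 0.05, in siCTRL (grey) and siMatrin3 (orange), with each library as a point and the mean ± SD of 3 libraries as bars. The groups do not overlap for 7 genes, all lower in siMatrin3, and they overlap for LINC01234.

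The 7 genes that were lower in siMatrin3 had a median locus of 44807 bases and 6 exons with 42.0% GC in the mature transcript, against 12515 bases, 3 exons and 48.6% GC over the 124 tested members that did not pass. Exons and GC are those of the canonical transcript that the annotation names for a gene, which need not be the one measured. They ranged from 3148 to 582286 bases, with LINC01963 and LINC00888 at the short end, so no length was common to them. By edgeR, 0 of the 15 members that overlap a coding locus passed (2 at an unadjusted p under 0.05) and 0 of the 7 head to head with a coding gene (1 at an unadjusted p under 0.05), and DESeq2 and limma also called 0. Outside coding loci 8 of 117 tested members passed. With 6.06% of all tested members past the threshold, counts of 0 in sets this small are no sign of a difference from the rest. These differences were not tested. Among the 8 genes with a pseudogene biotype, LINC00888 passed.

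Several members missed the threshold by little, and they are named here after their values were seen. LINC02331 (chromosome 14) had 7.14, 5.58 and 5.19 TPM in siCTRL and 2.89, 4.10 and 4.04 TPM in siMatrin3, with no overlap, a log2 fold change of -0.69 ± 0.20 and an adjusted p of 0.0503 (edgeR). LINC00431, a transcribed pseudogene on chromosome 13, had 2.45, 2.84 and 3.12 TPM against 1.81, 1.80 and 1.38 TPM (edgeR adjusted p = 0.0602). LINC00470 on chromosome 18 had 1.19, 1.37 and 1.1 TPM against 0.5, 0.63 and 0.960 TPM (log2 fold change -0.92, edgeR adjusted p = 0.0719). LINC00659 on chromosome 20 had 3.27, 3.23 and 2.12 TPM against 1.48, 1.97 and 1.35 TPM (edgeR adjusted p = 0.0826). These sets of libraries did not overlap either. In the other direction, the tested members with separate groups and higher siMatrin3 libraries were LINC02454, LINC02298, LINC00863, LINC01410 and LINC02193, with edgeR adjusted p from 0.114 for LINC01410 to 0.850 for LINC02193. LINC01410 had 0.240, 0.640 and 0.210 TPM in siCTRL and 0.980, 1.11 and 0.650 TPM in siMatrin3, from 22.8 to 53.9 counts per library. Its effective length was 2681, 1257 and 2692 bases in siCTRL and 1233, 1193 and 1191 bases in siMatrin3, so its ratio of mean TPM of 2.51 also holds a difference in length, and its counts gave a log2 fold change of 0.73.

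The 7 members left untested for low counts were LINC02968, LINC02041, LINC00106, LINC00640, LINC02256, LINC02978 and LINC01775. LINC02041 rested on 1 to 3 counts per library, and its 0.690, 0.380 and 1.01 TPM in siCTRL and 0.320, 0.370 and 0.360 TPM in siMatrin3 come from a mature transcript of 246 bases. LINC00640 had 0.690, 0.780 and 0.580 TPM against 0.450, 0.560 and 0.540 TPM. Both had groups that did not overlap. LINC02256 went down to 0 in siMatrin3 replicate 3, the only case of a member at 0 counts in a library, and had 11.2, 8.80 and 6.06 counts in siCTRL. LINC02978 and LINC01775 had their highest TPM in siCTRL replicate 3, at 2.01 and 2.27.

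TPM and counts did not always move together, because TPM divides the counts by an effective length that the authors' estimation weights by the transcripts found in each library. LINC02193 (ENSG00000260923, chromosome 16) had 1.53, 1.76 and 1.43 TPM in siCTRL and 1.94, 11.4 and 14.9 TPM in siMatrin3, a ratio of the group means of 5.99. Its counts were 58.0, 44.5 and 52.8 against 53.5, 44 and 63.6, with a log2 fold change of 0.08 ± 0.20 (edgeR adjusted p = 0.850). Its effective length was 869, 757 and 929 bases in siCTRL and 617, 109 and 113 bases in siMatrin3. The separation of its groups in TPM was thus not present in its counts. LINC00674, a transcribed pseudogene on chromosome 17, had 6.39 TPM in siMatrin3 replicate 2 and 1.17 to 1.89 TPM in the other libraries, with an effective length of 106 bases there and 298 to 494 bases elsewhere. The effective length differed by more than 1.5 times between libraries in 20 members. Of the 19 that were tested 0 passed by edgeR, DESeq2 or limma, and 3 had an unadjusted p under 0.05 by edgeR. By edgeR 11.0% of all genes passed, and 3.85% of all genes under 50 counts. The 20 members had a median of 35.8 counts, so a count of 0 here is no sign of a difference. A single transcript in the tables was held by 39 members.

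**Figure D4:**
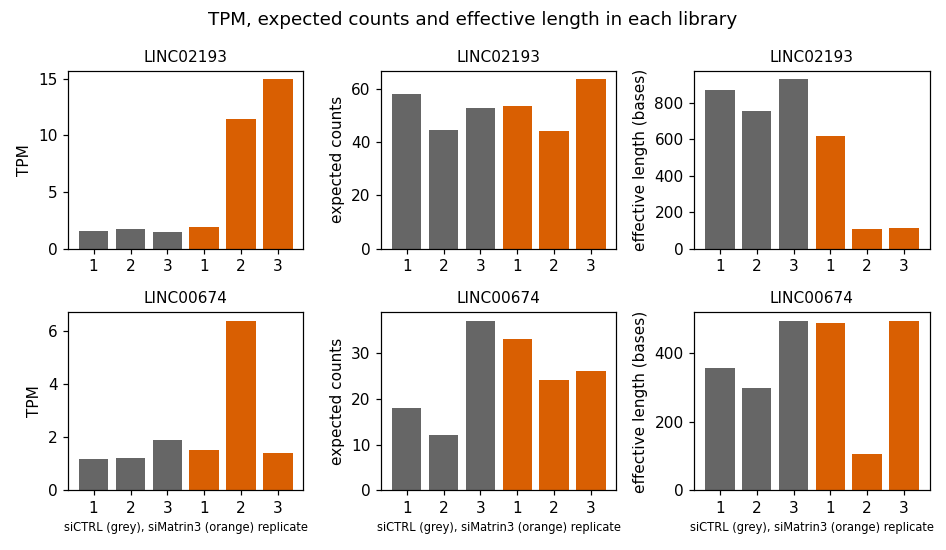
TPM, expected counts and effective length in bases of LINC02193 (top) and LINC00674 (bottom) in each siCTRL (grey) and siMatrin3 (orange) library. The high TPM bars, 11.4 and 14.9 for LINC02193 and 6.39 for LINC00674, stand over libraries with short effective lengths and counts close to those of the other libraries.

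The coding gene nearest to each member in the annotation was set beside it. Of 105 tested members with a tested nearest coding gene there were 100 distinct coding genes, of which 11 passed the test, near the 11.0% of all genes. Both passed in 3 pairs, and 2 of these had the same sign. LINC02458 lies 37.669 kb from DUSP6, a phosphatase that switches off ERK kinases. DUSP6 had 105, 103 and 105 TPM in siCTRL and 84.8, 74.4 and 73.4 TPM in siMatrin3, and fell by 0.40 on the log2 scale (edgeR adjusted p = 0.00127). LINC00511 lies 5.477 kb from SLC39A11, a zinc transporter gene, which had 30.5, 28.1 and 29.0 TPM against 25.2, 23.5 and 23.1 TPM and fell by 0.27 on the log2 scale (edgeR adjusted p = 0.00862, and 0.0508 without siCTRL replicate 3). In both pairs the groups of the coding gene were separate.

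LINC01963 lies 10.742 kb from XRCC5, which encodes the Ku80 subunit of DNA end joining and went the other way. XRCC5 had 142, 140 and 143 TPM in siCTRL and 154, 159 and 154 TPM in siMatrin3, a log2 fold change of 0.16 (edgeR adjusted p = 0.0198). Its call was lost without siCTRL replicate 3 (0.0522), siMatrin3 replicate 2 (0.0774) or siMatrin3 replicate 3 (0.0532). The neighbours of the other members past the test did not pass. They were RBM19 near LINC01234 (log2 fold change 0.14, edgeR adjusted p = 0.105), SUSD1 near LINC02977 (-0.26, 0.158), MCF2L2 near LINC00888 (0.06, 0.863), ARHGAP26 near LINC01844 (-0.00, 0.983) and ATXN7L3B near LINC02882 (-0.00, 0.998). The strongest fall among members, that of LINC02882, thus had a nearest coding gene with 41.9 ± 1.31 TPM in siCTRL and 41.3 ± 0.916 TPM in siMatrin3.

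**Figure D5:**
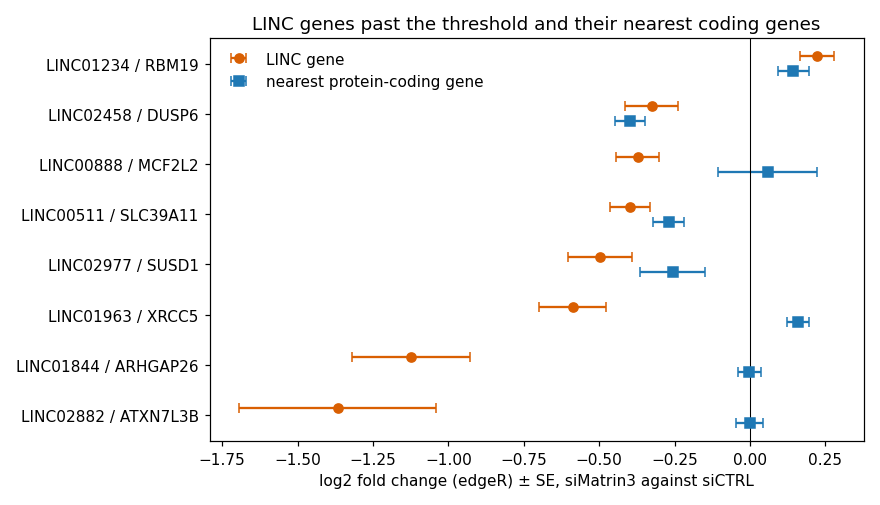
Log2 fold change of siMatrin3 against siCTRL (edgeR, bars give ± SE) for the 8 LINC genes at an adjusted p under 0.05 (orange circles) and their nearest protein-coding genes (blue squares). DUSP6 and SLC39A11 lie below 0 with their LINC genes, XRCC5 lies above 0 and opposite to LINC01963, and ARHGAP26 and ATXN7L3B lie at 0.

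Genes that act on such RNAs were taken as lists. Of 20 subunits and adaptors of the nuclear exosome, which degrades many non-coding RNAs, all were tested and 1 passed (5% against 11.0% of all genes): EXOSC8, a core subunit, went from 46.6 to 51.0 TPM with a log2 fold change of 0.18 (edgeR adjusted p = 0.0340). Its call was lost without siCTRL replicate 1 (0.0927), siCTRL replicate 3 (0.126), siMatrin3 replicate 1 (0.114) or siMatrin3 replicate 2 (0.106). The helicase MTREX had an adjusted p of 0.0637 by edgeR, at 41.6 and 45.6 TPM. Of 18 genes of RNA export and nuclear retention, 0 passed by edgeR, against 11.0% of all genes, a difference that was not tested. By edgeR 5 had an unadjusted p under 0.05, while DESeq2 called 2. The nearest was SRSF7 with a log2 fold change of 0.15 (edgeR adjusted p = 0.0654). The median log2 fold change was 0.08 in each of these lists, against -0.00 over all genes.

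Of 35 long non-coding RNAs with a described function, 28 matched the tables and 25 were tested, of which 2 were higher and 1 was lower. That is 12% of them, near the 11.0% of all genes, so the genes named next are single results. H19, an imprinted fetal RNA, had 0.620, 0.720 and 1.05 TPM in siCTRL and 1.37, 1.64 and 1.69 TPM in siMatrin3, with a log2 fold change of 1.18 ± 0.22 (edgeR adjusted p = 0.00813). By limma the call was lost, with an adjusted p of 0.0507 at a pseudocount of 1 and 0.0628 at 0.1. PVT1, from the MYC locus, went from 61.6 ± 3.67 to 74.1 ± 1.79 TPM (0.27 on the log2 scale, edgeR adjusted p = 0.00487). DANCR went from 40.2 ± 1.42 to 34.3 ± 2.5 TPM (-0.21 on the log2 scale, edgeR adjusted p = 0.0462), and lost its call without siCTRL replicate 2 or 3 or any siMatrin3 library, with edgeR adjusted p from 0.0844 to 0.168. NEAT1, next by p, had 123, 169 and 115 TPM in siCTRL and 169, 163 and 182 TPM in siMatrin3, and the groups overlapped. It did not pass (log2 fold change 0.36, edgeR adjusted p = 0.0645), but passed in 3 of the 15 other fits. MALAT1 could not be judged here, since its siCTRL libraries ran from 60.5 to 356 TPM.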

How the data were processed

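Poly(A) RNA of HCT116 cells was measured in 3 siCTRL and 3 siMatrin3 libraries, grouped by their labels. The authors used STAR for alignment and RSEM for quantification. Listed in the submitters' processing notes are cutadapt, STAR 2.5.1, RSEM and hg19. The authors deposited expected counts, which are estimated counts per gene, and TPM, which they scaled by effective length to a common total. The deposited lengths were averaged by the authors' RSEM over the transcripts of a gene.

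LINC genes were matched by Ensembl identifier. Names, biotypes, exons and nearest coding genes came from GENCODE release 44 on GRCh38, another build than that of the tables, so coordinates are given for RefSeq promoter windows only. Exon numbers, GC and mature lengths are those of the canonical GENCODE transcript of a gene, which can differ from the transcripts that were quantified. After rounding of the expected counts and filterByExpr, libraries were scaled by TMM. Groups were compared in edgeR 4.0.16 (R 4.3.3) by the two-sided quasi-likelihood test without covariates. The threshold was a Benjamini-Hochberg adjusted p under 0.05 over 16786 genes. The p-values measure the spread between these libraries. The common biological coefficient of variation was 5.98%.

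Members and lists were chosen with earlier results of these data known. Named members were those at an adjusted p under the threshold whose groups were separate in TPM, the 10 highest, those next to the minimum and those not tested. Nearest coding genes were named with them, and up to 4 genes of each list with the smallest p. MALAT1 and the markers of cell types were named besides these. LINC01234 also came in as one of the 10 highest. Other members named as near the threshold, or for their effective length, were chosen after their values were seen. LINC symbols of genes with another name came from RefSeq synonyms. Alternatives were RLE and upper quartile scaling, other count filters, a replicate block, the removal of each library, a length offset, DESeq2 1.42.0, limma 3.58.1 on log2 TPM with a pseudocount of 1 or 0.1, a stricter threshold of 0.01 and other TPM minimums. The fits were tested on simulated data.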

Additional observations from a re-analysis of the deposited data

How the results depend on the processing

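The number of LINC genes past the threshold, 8 in the main fit, was 13 when low counts were kept and 5 with effective length as an offset. It was 5 by limma on log2(TPM + 1), 3 by limma on log2(TPM + 0.1) and 3 at an adjusted p under 0.01. Of the 5 by limma on log2(TPM + 1), 3 were among the 8 of the main fit. Without siCTRL replicate 2 or without siMatrin3 replicate 1, 6 LINC genes passed, of which 5 were among the 8. The 1849 of all genes became 706 with the offset, 437 and 429 with limma at these pseudocounts and 561 at an adjusted p under 0.01. Leaving out 1 library gave 5 to 8 LINC genes and 759 to 1599 genes in all, with 5 LINC genes without siMatrin3 replicate 2 (1014 genes) or siMatrin3 replicate 3 (759 genes), and 770 genes without siCTRL replicate 3. The cause was not tested. With the replicate number as a block, 10 LINC genes and 2716 genes passed, and the 10 held all 8. The correlations of the deviations of libraries of the same number were 0.177, 0.0896 and 7.2e-05. For libraries of different numbers they ran from -0.145 to 0.0641. Whether a shared number stands for shared handling was not tested. RLE and upper quartile scaling, a filter of 1 CPM, DESeq2 and other TPM minimums (99 genes at 1 TPM, 200 at 0.25) gave 7 to 9 LINC genes. The filter of 1 CPM gave 8, of which 7 were among the 8 of the main fit. LINC00511, LINC00888 and LINC01844 passed in all 15 other fits, the last with a log2 fold change from -1.23 to -0.51, the smallest with limma on log2(TPM + 1). LINC01963 was lost with limma only. Among named members, neighbours and list genes, 6 of the 24 past the threshold passed in every fit, and 12 of the 79 others in some fit. No direction of a called gene reversed. The median log2 fold change of LINC genes ran from -0.14 (without siMatrin3 replicate 2) to -0.05 (without siCTRL replicate 2). Of the tested LINC genes, 63 had under 50 counts per library, and what size of change could be seen in these was not measured.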

Other observations

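A further 84 genes at 0.5 TPM or more carry another name and have a LINC symbol among their RefSeq synonyms, and 81 were tested. A synonym does not show that the gene was once named so. Of these 9 passed, 6 lower and 3 higher (11.1%, against 11.0% of all genes tested). MRPS30-DT is a divergent transcript with the synonym LINC02224. It had 2.51, 2.57 and 2.92 TPM in siCTRL and 1.42, 1.21 and 1.32 TPM in siMatrin3. Its log2 fold change was -1.12 ± 0.24 (edgeR adjusted p = 0.0160). Its call was lost without siCTRL replicate 3 (0.0784), siMatrin3 replicate 2 (0.0540) or siMatrin3 replicate 3 (0.0702). EOLA2-DT had 2.95, 3.22 and 2.59 TPM against 2.21, 1.93 and 1.2 TPM (-0.81 on the log2 scale, edgeR adjusted p = 0.0184, and 0.0582 without siMatrin3 replicate 3). MIR924HG, a microRNA host gene, had 1.05, 1.01 and 1.02 TPM against 0.670, 0.600 and 0.600 TPM (log2 fold change -0.71, edgeR adjusted p = 0.0200). It lost the call without siCTRL replicate 1 or 3 or siMatrin3 replicate 2 or 3 (0.0538 to 0.0736) and with DESeq2 (0.0531). APPAT had 5.79, 8.97 and 5.51 TPM against 3.84, 3.66 and 3.79 TPM (-0.64 on the log2 scale, edgeR adjusted p = 0.0110, and 0.0507 without siMatrin3 replicate 3). In each of these 4 genes the groups did not overlap. The 6 lower genes also held OLMALINC and STARD13. OLMALINC had 6.85, 6.22 and 6.33 TPM against 5.1, 5.05 and 5.38 TPM (log2 fold change -0.30, edgeR adjusted p = 0.0220). It lost the call without siCTRL replicate 1 or 3 or any siMatrin3 library (edgeR adjusted p from 0.0559 to 0.0724). STARD13 is a protein-coding gene with the synonym LINC00464 (log2 fold change -0.51, edgeR adjusted p = 0.0326). STARD13 lost its call whenever 1 library was left out (edgeR adjusted p from 0.0592 to 0.109). H19 and PVT1 were among the 3 that were higher, with SNHG12, a snoRNA host gene, at 56.7 ± 5.06 and 67.0 ± 5.81 TPM (log2 fold change 0.27, edgeR adjusted p = 0.0446). SNHG12 lost the call with upper quartile scaling (0.0687), with a filter of 1 CPM (0.0507) and whenever a library other than siCTRL replicate 2 was left out (0.0507 to 0.170).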
